A study of Mus musculus with 18 samples.

Results

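The 10 genes followed here encode antimicrobial peptides and proteins and were measured in all 6 sorted cell populations of the series: the beta-defensins Defb1, Defb3, Defb4, Defb6 and Defb14, the cathelicidin Camp, lactoferrin (Ltf), the secretory leukocyte protease inhibitor Slpi, the peptidoglycan recognition protein Pglyrp1 and the C-type lectin Reg3g. They were taken by gene symbol, and all 10 of 10 symbols were found among the 23951 genes of the expression table. Cells came from ear skin of 8-week-old males and females of mixed background, 7 days after induction with 4 daily injections of 2 mg tamoxifen. DKO* mice carry floxed alleles of both c-Jun and JunB (JunB f/f, c-Jun f/f), a tamoxifen-inducible Cre driven by the keratin 5 promoter (K5-Cre-ERT) and the mT/mG reporter, which switches from Tomato to GFP in a cell once Cre has acted. Control mice (Co, Co-mT/mG) carry K5-driven Cre and the same reporter, and their c-Jun and JunB alleles are wild-type or heterozygous. Cells negative for CD45 and high for CD49f were sorted into CD34+ bulge hair follicle stem cells (HF-SCs) and CD34- basal keratinocytes (b-KCs). From DKO* mice each cell type was further split into mutant GFP and non-mutant Tom cells. Each of the 6 groups holds 3 libraries, HF-SC Co and b-KC Co from mice 810, 825 and 828, and the 4 DKO* groups (HF-SC GFP and Tom, b-KC GFP and Tom) each from mice 814, 815 and 817. The labels name no reporter colour for the control libraries.

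Antimicrobial peptides are small, mostly cationic proteins that epithelia and leukocytes make to kill or restrain microbes at body surfaces. Keratinocytes produce some of them constantly and others only under the influence of cytokines such as IL-17, IL-22, TNF and IL-1 or after barrier damage. Several are among the most abundant products of the epidermis in psoriasis, where they also act as signals to immune cells. Neutrophil granules are a separate source of cathelicidin, lactoferrin, Slpi and Pglyrp1.

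Expression was given as FPKM, read fragments scaled to transcript length and to the mapped reads of the library, so levels of different genes can be compared per length. Of the 10 genes, 7 reached 1 FPKM in at least 3 of the 18 libraries and were tested together with 12751 genes in all by limma on log2(FPKM + 1), which makes changes of weakly expressed genes look smaller than they are. Camp, Ltf and Reg3g did not pass and are described by their levels. A difference was called where the Benjamini-Hochberg adjusted p was under 0.01 and the log2 fold change was 2 or more in size, and each fold change below is on the log2(FPKM + 1) scale and is given with its standard error. Defb4 passed the filter through DKO* libraries alone, and Defb3 and Pglyrp1 each had 1 control library at 1 FPKM or more, so a count of changed genes over those that passed is a description only. In bulk libraries, fewer expressing cells and less RNA per cell cannot be told apart.

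The deleted genes followed the labels. Jun was between 835 and 1086 FPKM in the 6 control libraries and between 29.6 and 88.4 FPKM in the 6 GFP libraries, and Junb between 436 and 772 FPKM and between 37.2 and 77.5 FPKM. In Tom libraries both were intermediate, with Jun at 163 to 614 FPKM and Junb at 208 to 402 FPKM. Depth implied by the steps between low FPKM values was 16500000 to 26200000 reads per library. Of 8 bulge markers, 6 were called higher in HF-SC Co than in b-KC Co, as were 2.82% of all tested genes, although Krt15 is listed at 0 in 1 HF-SC Co library and Krt14 in 3 DKO* b-KC libraries. The summed FPKM of 14 endothelial markers was 1008 to 3424 in HF-SC Tom, against 140 to 208 in HF-SC Co and 2.54 to 52.1 in HF-SC GFP. That of 12 leukocyte markers was 31.4 to 103 in HF-SC Tom and at most 38.7 in all other groups. Cd14 alone had 90.2, 79.4 and 13.5 FPKM in HF-SC Tom of mice 814, 815 and 817. Ptprc, the gene of CD45, was at most 0.539 FPKM in HF-SC Tom and reached 0.946 FPKM in HF-SC GFP. Of 15 neutrophil markers 4 passed the filter, and the list summed to 2.03 to 3.29 FPKM in control and 9.05 to 28.2 FPKM in DKO* libraries, where Cd177 reached 15.4 FPKM and Cxcr2 10.3 FPKM. Of the granule genes on this list, Elane, Mpo, Ngp and Ctsg stayed at or under 0.181 FPKM in every library, Mmp8 reached 0.686 FPKM in HF-SC GFP and Prtn3 0.883 FPKM in HF-SC Co. Retnlg, another neutrophil marker, was 0 in all controls and reached 2.19 FPKM in HF-SC Tom.

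Control skin already had a clear order among the beta-defensins, a family of cysteine-rich peptides with an amphipathic fold. Defb6 was the most abundant of the 10 genes in both control groups, with 269, 180.3 and 255 FPKM in b-KC Co and 33.1, 10.3 and 26.6 FPKM in HF-SC Co. It made up 83.1% to 85.0% of the summed FPKM of the 10 genes in b-KC Co and 59.1% to 77.4% in HF-SC Co. Defb1, the constitutive beta-defensin of many epithelia, came next with 42.5, 25.0 and 38.3 FPKM in b-KC Co and 6.81, 3.62 and 4.75 FPKM in HF-SC Co. For both genes all 3 bulge libraries lay below all 3 basal libraries, as they did for 5 of the 7 tested genes and 37.4% of all tested genes. Against b-KC Co, HF-SC Co was lower in Defb6 by a log2 fold change of -3.40 ± 0.79 (adjusted p = 0.00198) and in Defb1 by -2.58 ± 0.43 (adjusted p = 1.31e-04), the 2 of 7 tested genes called here, where 2.82% of all tested genes were called lower. Defb6 lost this call when any 1 of the 3 control mice was left out (adjusted p = 0.0125 without 810, 0.0231 without 825 and 0.0159 without 828). Markers of other epidermal compartments moved with this comparison: of 8 suprabasal differentiation markers 5 were called lower in HF-SC Co, with summed FPKM of 936 to 1286 against 7282 to 8975 in b-KC Co, and of 7 sebaceous and upper follicle markers 3, with 168 to 202 against 909 to 1252. Their part in the levels of Defb6 and Defb1 was not tested. Slpi was also lower in bulge cells, by -1.61 ± 0.42 (adjusted p = 0.00468), which is under the fold threshold. Defb3, Defb4, Defb14 and Pglyrp1 were low in both control groups, with the highest library at 3.13 FPKM, for Defb14 in b-KC Co.

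**Figure D1:**
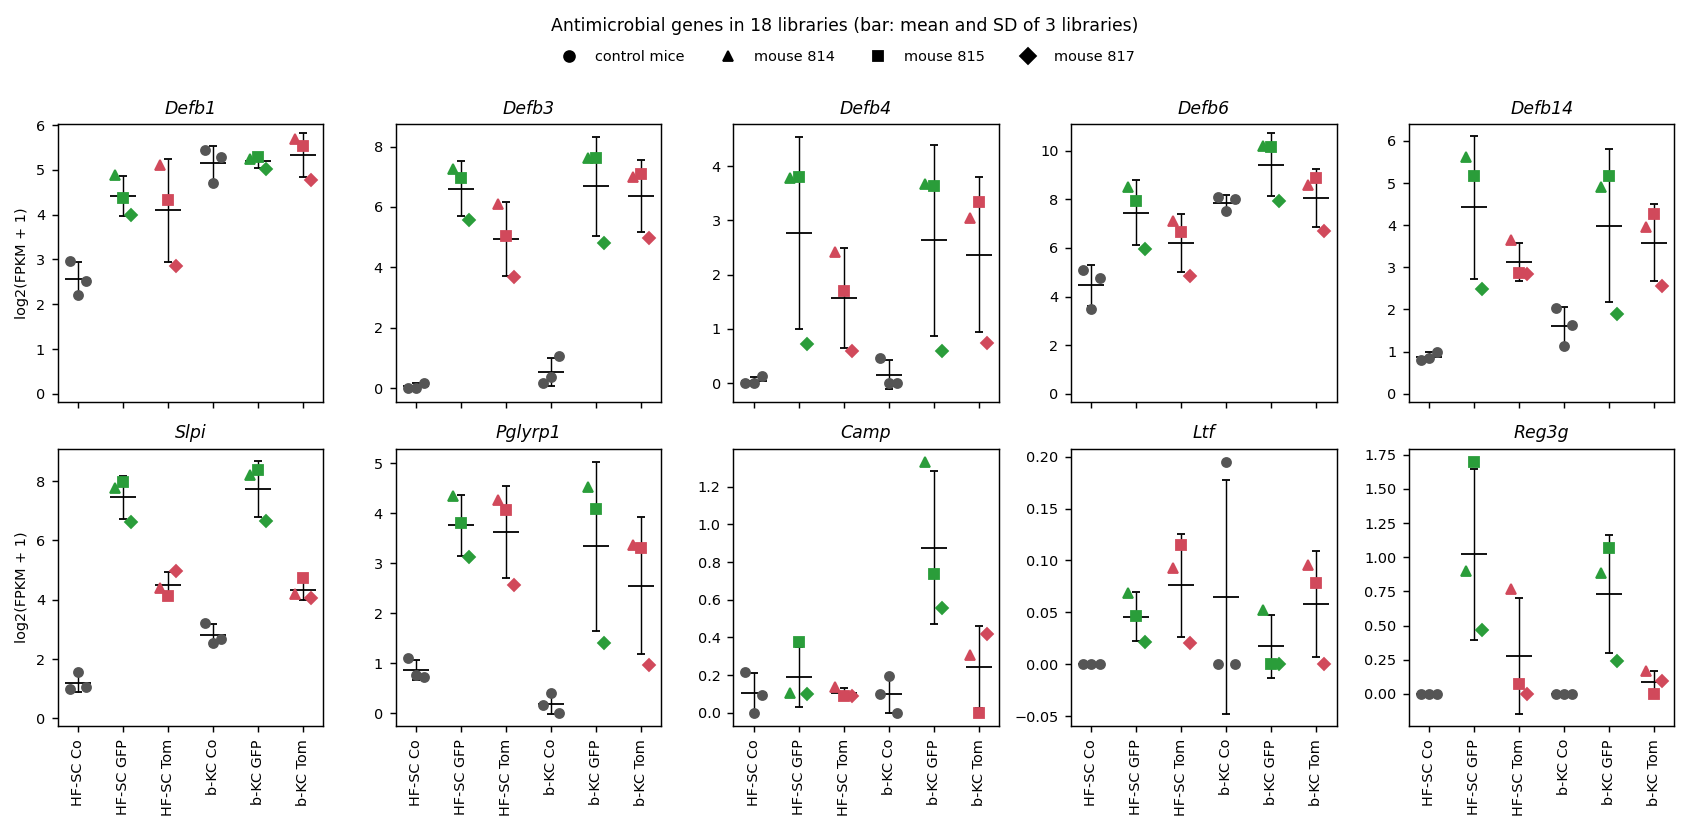
Level of each of the 10 genes as log2(FPKM + 1) in the 18 libraries, with 1 symbol per library and the mean and SD of the 3 libraries of a group as a black bar; panels have different vertical scales. Slpi is separated between GFP and Tom libraries, the b-KC groups of Defb1 overlap, and mouse 817 (diamonds) is the lowest DKO* mouse in most panels of tested genes.

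Against these controls, 5 of the 7 tested genes rose among GFP cells of the bulge and 3 among the Tom cells beside them, while among basal cells 3 rose with GFP and 1 with Tom, and none was called lower. Of all tested genes 2.43%, 3.61%, 1.29% and 1.25% were called higher and 0.635%, 0.478%, 0.588% and 1.51% lower, in the same order. At an adjusted p under 0.05 with no fold minimum, a rule chosen after seeing the data, 7, 5, 5 and 3 of the 7 genes passed, against 38.5%, 44.4%, 41.6% and 45.9% of all tested genes. The median log2 fold change of the 7 genes was 2.997, 2.24, 2.48 and 1.99, beside a median of all tested genes between -0.05 and -0.02. GFP and Tom were compared with the same control libraries and came from the same mice, so the 4 sets of values are not independent. Defb3 rose in all 4 comparisons, Slpi and Pglyrp1 in 3, and Defb14 and Defb6 in HF-SC GFP. Counted without a test over the 7 tested genes, all 3 libraries of HF-SC GFP lay above all 3 of HF-SC Co for 7 genes, against 24.7% of all tested genes, and the same held for 5 genes of HF-SC Tom (24.4% of all tested genes), 4 of b-KC GFP (28.0%) and 5 of b-KC Tom (31.6%).

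Defb3, an inducible beta-defensin of mouse epithelia, went from near absence to one of the highest levels of the set. Bulge libraries had 0, 0 and 0.127 FPKM with Co, 153, 124 and 46.2 FPKM with GFP and with Tom 67.6, 31.8 and 11.8 FPKM. In b-KCs the values were 0.134, 0.274 and 1.06 FPKM in Co, 195, 198 and 26.7 FPKM in GFP and 127, 134 and 30.4 FPKM in Tom. Every DKO* library was above every control library, and the 4 DKO* groups overlapped in the order of their means. For bulge cells the log2 fold change was 6.54 ± 0.76 with GFP (adjusted p = 8.39e-06) and 4.88 ± 0.76 with Tom (adjusted p = 1.01e-04), and for basal cells 6.16 ± 0.76 with GFP (adjusted p = 3.46e-05) and 5.83 ± 0.76 with Tom (adjusted p = 2.92e-05). Since the HF-SC Co libraries hold at most 1 implied read of Defb3 each, and 3 reads are worth 0.416 to 0.66 FPKM on its 275-base transcript, the size of its change in bulge cells depends on the added 1. These calls held under every alternative tried. Defb3 passed the filter through the DKO* groups, with 1 control library at 1 FPKM or more, so they are a description.

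In DKO* libraries Defb4 and Defb14 had lower levels than Defb3. Values of Defb4 in HF-SC Co were 0, 0 and 0.0896 FPKM, those in HF-SC GFP 12.7, 12.9 and 0.643 FPKM and those in HF-SC Tom 4.36, 2.24 and 0.508 FPKM. In b-KCs it had 0.376, 0 and 0 FPKM in Co, 11.7, 11.3 and 0.513 FPKM in GFP and 7.21, 9.08 and 0.662 FPKM in Tom. No DKO* library overlapped its control group, but mouse 817 stayed under 1 FPKM in all 4 fractions, and Defb4 was not called in any comparison (2.72 ± 0.89 for GFP bulge cells, adjusted p = 0.0244, and 2.48 ± 0.89 for GFP basal cells, adjusted p = 0.0365). With the mouse as a random block these became adjusted p = 0.00554 and 0.00969. Since Defb4 passed the filter only through the groups where it is high, these values are a description. Defb14, the mouse counterpart of human beta-defensin 3, had 0.739, 0.811 and 0.995 FPKM in the bulge of controls, 48.2, 35.0 and 4.59 FPKM in GFP bulge cells and 11.5, 6.34 and 6.23 FPKM in their Tom counterparts. It rose in HF-SC GFP by 3.54 ± 0.80 (adjusted p = 0.00267), a call that was lost when any 1 mouse other than 817 was left out (adjusted p = 0.0132 to 0.0273). In b-KCs Defb14 had 3.13, 1.20 and 2.08 FPKM in Co, 28.8, 35.1 and 2.71 FPKM in GFP and 14.4, 18.1 and 4.90 FPKM in Tom, and neither fraction passed the test (adjusted p = 0.0270 for GFP and 0.0542 for Tom). The GFP library of mouse 817 lay within the control range for Defb14, whereas those of mice 814 and 815 were far above it.

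Defb6 was the defensin with the highest level throughout. Among bulge cells, GFP libraries had 359, 240 and 61.2 FPKM and Tom libraries 138, 100.2 and 27.6 FPKM, against the control values given above. It rose in HF-SC GFP by 2.997 ± 0.79 (adjusted p = 0.00700), with all 3 libraries above Co, but the call was lost without a filter on low values (adjusted p = 0.0149) and when any 1 mouse other than 817 was left out (adjusted p = 0.0152 to 0.0486). The suprabasal markers summed to 1812 to 3661 FPKM in HF-SC GFP and 1718 to 2146 FPKM in HF-SC Tom, above HF-SC Co in both. Of the 8 tested, 4 were higher and 4 lower than Co in HF-SC GFP, and 3 higher and 5 lower in HF-SC Tom. Their part in the values of Defb6 was not tested. The HF-SC Tom difference of 1.75 ± 0.79 did not pass (adjusted p = 0.0829). In b-KCs Defb6 had 1158, 1145 and 242 FPKM in GFP and 388, 467 and 104 FPKM in Tom, so that the GFP library of mouse 817 lay within the range of b-KC Co and its Tom library below it, while the other mice were above. Differences from Co were 1.56 ± 0.79 in b-KC GFP (adjusted p = 0.122) and 0.20 ± 0.79 in b-KC Tom (adjusted p = 0.861). Without mouse 817 the b-KC GFP difference was 2.31 ± 0.36 (adjusted p = 1.35e-04).

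Defb1 was not called in any comparison of DKO* with control cells. It had 36.9, 38.2 and 31.7 FPKM in b-KC GFP and 50.8, 45.7 and 26.3 FPKM in b-KC Tom. All 3 GFP libraries lay within the range of 25.0 to 42.5 FPKM in b-KC Co, and 2 of the 3 Tom libraries above it. The log2 differences from Co were 0.04 (95% confidence interval -0.87 to 0.96) in b-KC GFP and 0.19 (-0.72 to 1.10) in b-KC Tom. In bulge cells Defb1 had 28.6, 19.6 and 15.0 FPKM in GFP and 33.3, 19.2 and 6.18 FPKM in Tom. All 3 GFP libraries were above HF-SC Co, and 2 of the 3 Tom libraries, with mouse 817 inside the control range. The differences of 1.85 ± 0.43 for GFP (adjusted p = 0.00312) and 1.53 ± 0.43 for Tom (adjusted p = 0.00941) were both under the fold threshold. The change of HF-SC GFP against that of b-KC GFP, tested as an interaction, was 1.81 ± 0.61 (adjusted p = 0.0632).

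The 4 inducible or epidermal defensin genes lie close together. In the NCBIM37 annotation, the build of the deposited values, Defb14 is at chromosome 8, 19194357 to 19195212, Defb4 at 19198706 to 19201545, Defb6 at 19225478 to 19228209 and Defb3 at 19293360 to 19295291, all on the plus strand and all with 2 exons, within 101 kb. Between them lie Defa-ps12, Defb46, Defb5 and Gm15357. Defb1 lies apart, at chromosome 8, 22887071 to 22905657. Reads of 51 bases with up to 2 mismatches could match another defensin transcript in 3.56% of windows of Defb3 and 9.9% of windows of Defb4, and in none of the windows of the other 8 genes, so the values of Defb3 and Defb4 are less certain. Defb3 is among the genes matched by windows of Defb4, and its levels were far above those of Defb4 in DKO* libraries. Another defensin was also matched by 3.82% of windows of Defb5, whose values are far below those of Defb3 in DKO* libraries. How many reads were shared was not tested. Defb5 was listed at 0 in all 6 control libraries and had 3.11, 2.30 and 0.965 FPKM in b-KC GFP and 1.45, 2.08 and 0.518 FPKM in b-KC Tom. Its log2 differences of 1.58 ± 0.29 (adjusted p = 6.95e-04) and 1.17 ± 0.29 (adjusted p = 0.00398) were under the fold threshold. Defa-ps12, an alpha-defensin pseudogene by name, had 0 FPKM in all controls and 9.33, 6.83 and 0.280 FPKM in b-KC GFP, a difference of 2.23 ± 0.58 (adjusted p = 0.00669). Both genes passed the filter through DKO* libraries alone, so these values are a description. Apart from the members of the set, 38 Defb genes were measured, Defb5 included, and 25 of them were listed at 0 in every library. The same held for 16 of 18 Defa genes, Defa-ps12 being among the 18.

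Defb3 and Defb6 were the defensins of the cluster whose sequence before the start was at hand, and their windows are shown because their control levels were opposite, near absence and high abundance. Both windows are the 250 bases before the RefSeq start in GRCm38.p6, plus strand, chr8:19293111-19293360 for Defb3 and chr8:19225228-19225477 for Defb6. Capitals mark matches on either strand to simple motifs for NF-kB (GGG and CC with any 5 bases between) and C/EBP (TTNNGNAA), transcription factors known from cytokine responses, with 2 overlapping NF-kB matches in 1 stretch of Defb6.
Defb3: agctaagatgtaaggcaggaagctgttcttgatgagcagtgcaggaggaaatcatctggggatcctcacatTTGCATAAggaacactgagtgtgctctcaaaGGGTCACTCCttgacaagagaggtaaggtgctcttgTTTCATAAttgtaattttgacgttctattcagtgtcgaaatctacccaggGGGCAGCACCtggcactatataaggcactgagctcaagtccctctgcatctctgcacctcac
Defb6: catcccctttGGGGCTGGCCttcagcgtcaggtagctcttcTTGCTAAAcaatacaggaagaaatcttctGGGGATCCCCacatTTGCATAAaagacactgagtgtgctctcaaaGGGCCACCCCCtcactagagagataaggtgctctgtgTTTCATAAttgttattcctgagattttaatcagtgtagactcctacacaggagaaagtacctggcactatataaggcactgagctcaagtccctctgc
The sequences of Defb3 and Defb6 were 74.0% identical over 265 aligned columns, against 45.8% to 52.9% for the other pairs among the 7 genes with a window. Both hold the C/EBP matches TTGCATAA and TTTCATAA, while Defb3 has 2 NF-kB matches and Defb6 has 4. Such matches are common, since 45.8% of 32851 windows of the same length hold the NF-kB motif and 36.8% the C/EBP motif. An AP-1 motif (TGANTCA, held by 6.75%), a STAT motif (TTCNNNGAA, 7.02%) and, outside Reg3g, a TATA motif (TATAAA, 12.4%) were not found among these letters in any of the 7 windows. Only exact letters were searched, so near matches to the TATA motif, such as tatataa in the windows of Defb3 and Defb6, were not counted.

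Slpi, an inhibitor of neutrophil elastase and cathepsin G that also acts on bacteria, had the largest gap between mutant and non-mutant cells. It lies at chromosome 2, 164179806 to 164214831, on the minus strand in NCBIM37, with 3 annotated transcripts. In bulge cells Slpi had 1.00, 1.96 and 1.08 FPKM in Co, 215, 250.2 and 97.9 FPKM in GFP and 20.01, 16.5 and 30.5 FPKM in Tom. In b-KCs it had 8.31, 4.79 and 5.42 FPKM in Co, 295, 328 and 98.7 FPKM in GFP and 17.4, 25.8 and 15.8 FPKM in Tom. In both cell types the 3 groups did not overlap, with Co lowest and GFP highest. It rose in HF-SC GFP by 6.25 ± 0.42 (adjusted p = 5.53e-08), a ratio of mean FPKM of 140, and in b-KC GFP by 4.93 ± 0.42 (adjusted p = 1.18e-06), a ratio of 39.0. It also rose in HF-SC Tom, by 3.29 ± 0.42 (adjusted p = 1.58e-05), while b-KC Tom was higher by 1.53 ± 0.42 (adjusted p = 0.00787), under the fold threshold. Neutrophils also store Slpi, and the summed FPKM of the 15 neutrophil markers was 17.8 to 28.2 in HF-SC GFP, 14.1 to 17.3 in HF-SC Tom, 9.27 to 28.2 in b-KC GFP and 9.05 to 11.9 in b-KC Tom. In HF-SC GFP the mean was 9.56 FPKM for Cd177, 7.58 FPKM for Cxcr2 and 0.148 FPKM for Csf3r, all on this list. The part of these markers in the Slpi levels was not tested. The interaction of cell type with the change was 1.32 ± 0.59 for GFP (adjusted p = 0.157) and 1.77 ± 0.59 for Tom (adjusted p = 0.0541).

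**Figure D2:**
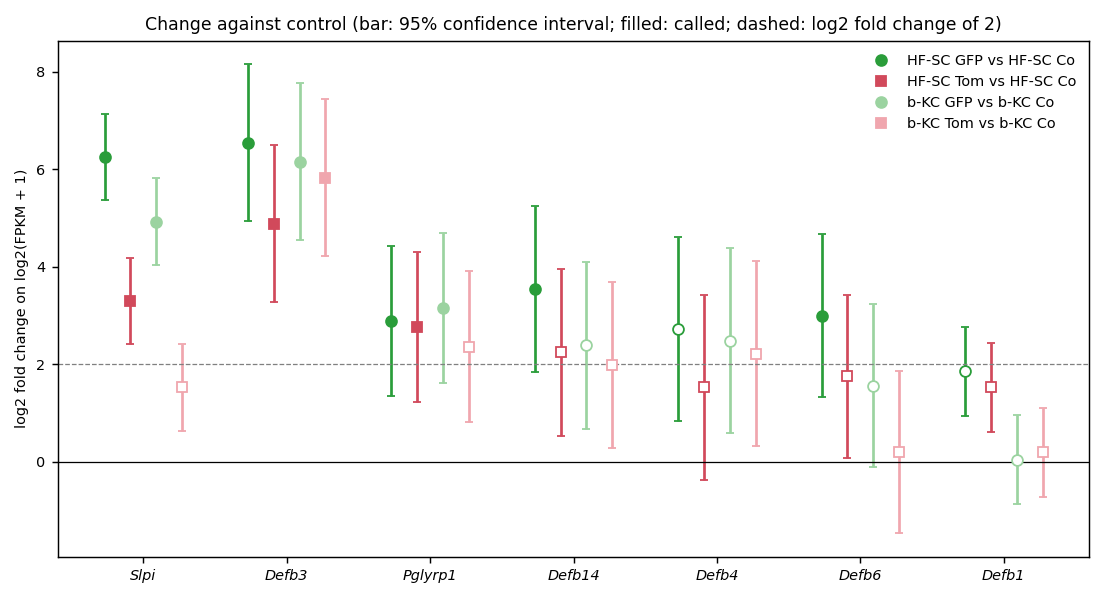
Log2 fold change of the 7 tested genes against control cells of the same type on log2(FPKM + 1), with bars for the 95% confidence interval and filled symbols for called changes. Defb3 (6.54) and Slpi (6.25) lie highest in HF-SC GFP, while both b-KC values of Defb1 (0.04 and 0.19) lie near 0.

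Within DKO* mice, Slpi was the 1 tested gene of the set called between GFP and Tom cells, by 2.95 ± 0.42 among bulge cells (adjusted p = 1.54e-04) and 3.40 ± 0.42 among basal cells (adjusted p = 8.58e-04). Called higher in GFP were 0.0941% of all tested genes for bulge and 0.0471% for basal cells. The ratio of GFP to Tom FPKM within a mouse was 10.8, 15.2 and 3.21 in HF-SCs of mice 814, 815 and 817 and 16.9, 12.8 and 6.24 in their b-KCs, so that GFP was higher in 3 of 3 mice in each cell type. With the mouse as a fixed replicate block over these 2 fractions alone, the difference was the same in size and missed the threshold of 0.01 (adjusted p = 0.0207 for bulge and 0.0117 for basal cells). Without mouse 814 the adjusted p was 0.0157 for bulge and 0.0521 for basal cells, and without mouse 815 it was 0.0123 and 0.0641. The other 6 tested genes did not pass between the fractions. GFP and Tom libraries did not overlap for Slpi alone of these 7 genes in HF-SCs and in b-KCs, against 8.41% and 8.48% of all tested genes with all GFP libraries higher. Defb6 was nevertheless higher in the GFP fraction of each mouse, 2.22 to 2.61 times in HF-SCs and 2.34 to 2.99 times in b-KCs (1.25 ± 0.79, adjusted p = 0.418, and 1.36 ± 0.79, adjusted p = 0.597), and with the fixed block its adjusted p was 0.00960 and 0.0193 at the same size. Defb3 was 2.27 to 3.92 times higher in GFP than in Tom bulge cells (1.66 ± 0.76, adjusted p = 0.232), whereas the ratios in b-KCs were 1.53, 1.48 and 0.878, with mouse 817 lower in GFP (0.33 ± 0.76, adjusted p = 0.985). Defb14 was higher in GFP in mice 814 and 815 and lower in mouse 817, in both cell types, and without mouse 817 it was called in HF-SCs (2.13 ± 0.28, adjusted p = 7.31e-05). The HF-SC Tom libraries are also those with the high endothelial and leukocyte marker sums given above. On the GFP side of the bulge, 8 of 8 suprabasal markers had the higher mean, none of them called (median log2 difference 0.97), as had 6 of 7 sebaceous and upper follicle markers, 1 of them called. Of 4 tested neutrophil markers 1 was called higher with GFP, and their list summed to 17.8 to 28.2 FPKM against 14.1 to 17.3 FPKM. Among b-KCs, 8 of 8 bulge, 7 of 8 suprabasal and 6 of 7 sebaceous and upper follicle markers were higher with GFP. There 6 of 7 basal keratinocyte and 13 of 14 endothelial markers were lower. None of these b-KC markers was called, where 0.0863% of all tested genes were. The part of these lists in the differences was not tested.

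**Figure D3:**
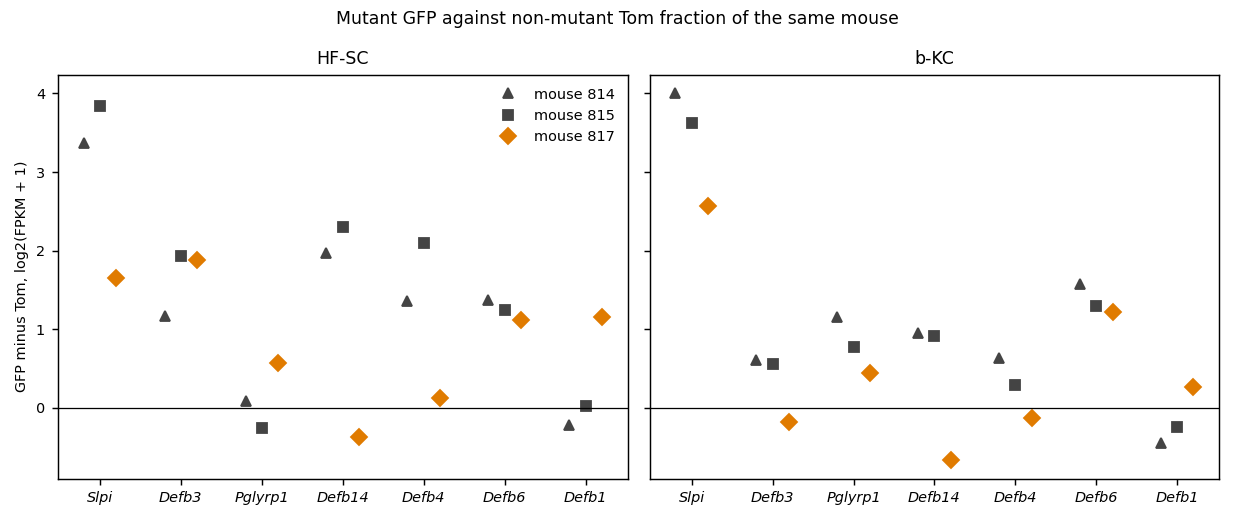
Difference between the GFP and the Tom library of the same mouse, in log2(FPKM + 1), for the 7 tested genes in HF-SCs (left) and b-KCs (right), with 1 symbol per mouse. Slpi and Defb6 are above 0 in all 3 mice in both panels, and Defb14 is below 0 in mouse 817 only.

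The window before the start of Slpi is shown as the gene with this gap. It is chr2:164356508-164356757, minus strand, in GRCm38.p6 (RefSeq), and capitals mark the 3 C/EBP matches.
Slpi: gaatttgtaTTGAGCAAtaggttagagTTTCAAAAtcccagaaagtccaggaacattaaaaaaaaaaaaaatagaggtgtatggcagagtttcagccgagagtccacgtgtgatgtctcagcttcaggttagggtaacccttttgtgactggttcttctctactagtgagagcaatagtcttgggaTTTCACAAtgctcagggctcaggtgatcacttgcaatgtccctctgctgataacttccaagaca
It holds no match to the NF-kB motif.

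Pglyrp1, which binds peptidoglycan of the bacterial cell wall and kills bacteria, rose in GFP and Tom bulge cells alike. It lies at chromosome 7, 19470039 to 19475787, on the plus strand in NCBIM37, with 3 exons. Control bulge cells had 1.15, 0.707 and 0.663 FPKM, GFP bulge cells 19.3, 12.98 and 7.72 FPKM and Tom bulge cells 18.1, 15.7 and 4.90 FPKM. Both fractions were above Co in every library and overlapped each other, with log2 fold changes of 2.89 ± 0.73 (adjusted p = 0.00535) and 2.76 ± 0.73 (adjusted p = 0.00628) and a difference between them of 0.13 (95% confidence interval -1.41 to 1.67). In b-KCs it had 0.127, 0.324 and 0 FPKM in Co, 22.1, 16.0 and 1.66 FPKM in GFP and 9.35, 8.93 and 0.964 FPKM in Tom. It rose in b-KC GFP by 3.15 ± 0.73 (adjusted p = 0.00335), and the b-KC Tom difference of 2.36 ± 0.73 missed the threshold (adjusted p = 0.0151), but passed it with the mouse as a random block (adjusted p = 0.00382). Between the bulge groups, the neutrophil marker sums moved with Pglyrp1 (17.8 to 28.2 FPKM in HF-SC GFP and 14.1 to 17.3 FPKM in HF-SC Tom, against 2.48 to 3.29 FPKM in HF-SC Co), as did the leukocyte sums and, in HF-SC Tom, the endothelial sums given above. Within groups the markers were mixed. In HF-SC GFP, mouse 817 was lowest in Pglyrp1 and Cxcr2 (6.98 FPKM) and highest in Cd14 (12.4 FPKM) and Ptprc (0.946 FPKM). In HF-SC Tom it was lowest in Pglyrp1 and Cd14 (13.5 FPKM) and highest in Ptprc (0.539 FPKM). The part of these markers in the levels of Pglyrp1 was not tested. All 3 calls of Pglyrp1 were lost when any 1 mouse other than 817 was left out, with adjusted p from 0.0147 to 0.0443, and those in bulge cells also without a filter on low values (0.0119 and 0.0129). Pglyrp1 passed the filter through the DKO* groups, with 1 control library at 1 FPKM or more, so its calls are a description. Its window before the start, chr7:18884440-18884689, plus strand, in GRCm38.p6 (RefSeq), is shown because it holds a single match, on the opposite strand, to the NF-kB motif.
Pglyrp1: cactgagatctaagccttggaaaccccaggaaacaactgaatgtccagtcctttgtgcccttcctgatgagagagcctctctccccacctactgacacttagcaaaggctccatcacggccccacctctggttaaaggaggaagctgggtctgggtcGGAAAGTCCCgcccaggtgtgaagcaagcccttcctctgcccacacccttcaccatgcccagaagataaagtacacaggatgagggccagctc

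Camp, Ltf and Reg3g had low levels, with at most 39 implied reads in a library for Reg3g, 18 for Camp and 9 for Ltf. Reg3g, a lectin that kills Gram-positive bacteria at the gut and skin surface, was listed at 0 in all 6 control libraries. GFP libraries had 0.868, 2.25 and 0.380 FPKM for HF-SCs and 0.849, 1.10 and 0.182 FPKM for b-KCs. Tom libraries had 0.703, 0.0491 and 0 FPKM for HF-SCs and 0.122, 0 and 0.0653 FPKM for b-KCs. A count of 3 reads corresponds to 0.148 to 0.235 FPKM for this gene, so 5 of the 6 GFP libraries and 1 of the 6 Tom libraries lie above what a count of 0 allows in any library, and only counting error is covered by that limit. Camp, whose product is the cathelicidin precursor, had 1.52, 0.666 and 0.471 FPKM in b-KC GFP and at most 0.337 FPKM in each of the other 15 libraries, where 3 reads are worth 0.190 to 0.302 FPKM. A fit without the filter gave Camp in b-KC GFP a difference of 0.78 (adjusted p = 0.00291), far under the fold threshold. Ltf, an iron-binding protein of neutrophil granules and secretions, was at or under 0.145 FPKM in every library. In NCBIM37, Reg3g lies at chromosome 6, 78416262 to 78418868 (minus strand), Camp at chromosome 9, 109749889 to 109751970 (minus strand) and Ltf at chromosome 9, 110921796 to 110945270 (plus strand).

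Mouse 817 had the lowest level of the 3 DKO* mice for all 7 tested genes in HF-SC GFP, b-KC GFP and b-KC Tom and for 6 of 7 in HF-SC Tom, where Slpi was highest in this mouse. Over all tested genes, mouse 817 was lowest for 35.3%, 47.2%, 31.3% and 46.4%, in the same order. The summed FPKM of the 10 genes was 233.7 in the lowest HF-SC GFP library and 697 and 837 in the others, and 405, 1749 and 1774 in b-KC GFP. In the same mouse Jun was 30.4 and 29.6 FPKM in the GFP fractions, below the 53.9 to 88.4 FPKM of the other GFP libraries, and 614 and 400.4 FPKM in the Tom fractions, above the 163 to 332 FPKM of the other Tom libraries. The part of this difference in the values of mouse 817 was not tested. Without mouse 817, 7 of 7 tested genes were called against Co for HF-SC GFP and 7 for HF-SC Tom, and in b-KCs 6 for GFP and 4 for Tom. The share of all tested genes called higher was also larger without this mouse, at 3.17%, 4.76%, 2.05% and 1.65%.

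None of the 7 genes was called for a difference in response between bulge and basal cells by limma, neither for GFP nor for Tom, where 0.863% and 1.98% of all tested genes were. At an unadjusted p under 0.05 there were 2 for each, Defb1 and Slpi, against 28.0% of all tested genes for GFP and 29.0% for Tom. With 3 mice a group, the 95% confidence intervals of these interactions were wide, for example -1.89 to 2.66 for Defb3 and GFP.

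Across the 18 libraries, Defb4 and Defb14 had the most similar pattern within the set (Pearson r of log2(FPKM + 1) = 0.97), followed by Defb3 and Defb14 (0.91) and Defb1 and Defb6 (0.90), whereas Defb1 and Pglyrp1 had 0.31. These libraries share mice and groups, so the values are descriptions. Among all tested genes, Defb3 was most like Rnase2b (0.997), Uox (0.989) and Slc1a1 (0.988), and Defb4 was most like Il1f8 (0.97), Defb14 (0.97) and Ear6 (0.96). Nearest to Defb14 were Klk9 (0.97), Pglyrp3 (0.97) and Il1f6 (0.97). Slpi was most like Il1a (0.96), Cldn7 (0.96) and Krt17 (0.95), and Pglyrp1 like Sp110 (0.97), Porcn (0.97) and Il10rb (0.96). The pattern of Defb6 was closest to that of Cstb (0.97), Stard5 (0.97) and Pycard (0.96), and that of Defb1 to Dhrs7 (0.95), Atp1b3 (0.95) and Ankrd22 (0.94).

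Other antimicrobial genes were taken from a list of 32, of which 30 were in the table and 17 were tested. Of these 17, 7 rose and none fell with GFP in bulge cells, and 5 rose and 1 fell with Tom. Among basal cells 5 rose and none fell with GFP, and 3 rose and 1 fell with Tom. The shares of all tested genes called higher and lower in these comparisons are those given above for the 7 genes (2.43%, 3.61%, 1.29% and 1.25% higher). In this order the 17 genes' median log2 fold changes were 1.76, 0.76, 1.09 and 0.84. S100a8, S100a9 and Lcn2 were called in all 4 comparisons. Lcn2, which withholds iron from bacteria by binding their siderophores, was 0.502 to 5.96 FPKM in control libraries and 92.8 to 2024 FPKM in DKO* libraries, with log2 fold changes of 7.99 (GFP) and 6.55 (Tom) for bulge cells and 7.89 (GFP) and 6.28 (Tom) for basal cells. S100a8 and S100a9, the subunits of calprotectin, which binds zinc and manganese, rose by 8.97 to 10.3 and by 9.10 to 10.3. Ccl20, a chemokine with direct antimicrobial activity, rose in HF-SC GFP (4.22), HF-SC Tom (2.72) and b-KC GFP (2.24). Pglyrp3, a relative of Pglyrp1, rose in HF-SC GFP (2.90) and HF-SC Tom (2.12). Lpo, lactoperoxidase, was called higher in HF-SC GFP (2.50), and Wfdc2, which shares its protein fold with Slpi, in b-KC GFP (2.48), but both passed the filter through DKO* libraries alone, so these values are a description. Cxcl14, a chemokine made by resting skin, fell in HF-SC Tom (-2.24) and b-KC Tom (-2.11).

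**Figure D4:**
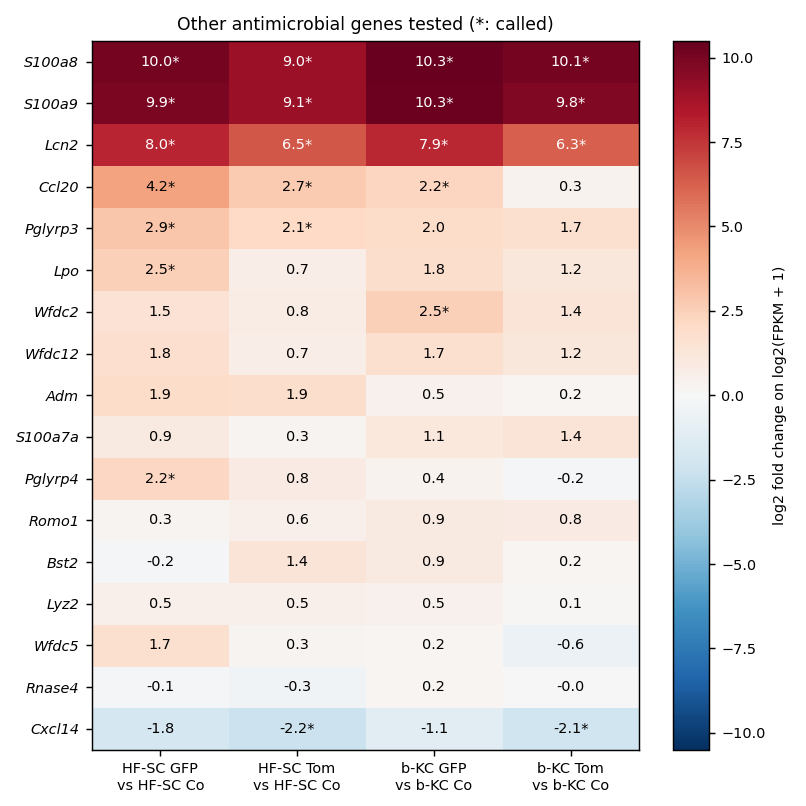
Log2 fold change on log2(FPKM + 1) of the 17 tested genes from the list of other antimicrobial genes, in the 4 comparisons with control cells, with an asterisk for called changes. S100a8, S100a9 and Lcn2 are called in each column, and Cxcl14 is at the bottom with negative values.

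Of 28 genes known to induce or regulate antimicrobial genes, 21 were tested, and 4 rose with GFP and 2 with Tom in bulge cells, and 2 with GFP and 0 with Tom in basal cells, where 14 had an unadjusted limma p under 0.05, as did 53.5% of all tested genes. Of all tested genes 2.43%, 3.61%, 1.29% and 1.25% were called higher, in the same order. Their median log2 fold change was between 0.25 and 0.71 in these comparisons. Il1a, an epithelial alarm cytokine, rose in HF-SC GFP (5.18 ± 0.36, adjusted p = 8.32e-08) and b-KC GFP (2.85 ± 0.36, adjusted p = 4.62e-05) and was higher in GFP than in Tom bulge cells (3.23 ± 0.36, adjusted p = 1.50e-05). Between these bulge fractions 1 of the 21 genes, Il1a, was called higher with GFP and 1 lower, beside 12 and 240 of all 12751 tested genes. Il17c, an epithelial IL-17 family cytokine, was at most 0.198 FPKM in control libraries and passed the filter through DKO* libraries alone, so its differences in HF-SC GFP (2.29 ± 0.59, adjusted p = 0.00638) and b-KC GFP (2.35 ± 0.59, adjusted p = 0.00576) are a description, although it is among the genes counted. Tnf rose in HF-SC GFP (2.91 ± 0.27) and HF-SC Tom (2.04 ± 0.27). Il1b was called in the same comparisons (2.65 ± 0.45 and 2.83 ± 0.45) and, like Il17c, had no control library at 1 FPKM. Il17a and Il22, the lymphocyte cytokines that induce beta-defensins in keratinocytes, were at most 0.115 and 0.223 FPKM in any library, and these cells were sorted as CD45-. Of 16 genes for receptors and processing, 7 were tested. Klk6, a kallikrein protease, was called higher in HF-SC GFP (4.71) and b-KC GFP (3.37), a description only since 1 control library had 1 FPKM or more, and Klk5, a kallikrein that cleaves the cathelicidin precursor, fell in b-KC Tom (-3.23).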

How the data were processed

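RNA was sequenced from 18 sorted ear skin libraries, 3 mice in each of 6 groups taken from the labels. cDNA was made from 4 to 10 ng total RNA (SMART-Seq v4), and Nextera XT libraries without strand information were completed by 12 PCR cycles. Reads were single-end, of 51 bases. TopHat 2.0.10 with Bowtie 1.0.0 placed them on NCBI37/mm9 (2 mismatches, 20 multihits), Cufflinks 2.2.1 estimated expression, and the authors deposited it as FPKM for each gene in each library. The submitters' processing notes also list GRCm38/mm10, with no role given. The table holds no read counts, so no count test was run.

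Genes reaching 1 FPKM in 3 or more libraries were tested on log2(FPKM + 1) by limma 3.58.1 (R 4.3.3), with 1 mean per group over all 18 libraries and moderated variances with a trend, with Benjamini-Hochberg adjustment within each comparison. On simulated data of HF-SC GFP against HF-SC Co, a log2 change of 3 was added to 200 genes, with noise independent between libraries. Of the changed genes 197 were called, and of 12551 unchanged genes 0. Fractions of a mouse were not linked in the simulation, so it checks the fit and not the reliability of the calls on these data. The same mouse number in the labels marks fractions of the same mouse, and deviations of such fractions correlated at 0.08 to 0.69, so mouse blocks were fitted as alternatives. Implied depth came from 7151 genes with 1 transcript, of whose low values 76.8% to 81.6% lay within 0.1 of a whole read. Limits set by read counts cover counting error only, because amplified reads carry no molecular identifiers. Python 3.11.15 (pandas 2.3.3, Biopython 1.88) and bwa 0.7.19 were used for levels, sequences and shared windows. RefSeq promoter windows matched 7 of 10 genes, not Defb1, Defb4 and Defb14.

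The genes and lists were chosen with earlier results of these data known. Named beside them are, from each list, genes called against Co, at most 8 by fold, and the 3 genes most correlated with each tested gene. Alternatives were the pseudocount, the low-value filter, scaling, trend, fold threshold, samples fitted, mouse block and each mouse left out; a looser threshold was chosen after seeing the data.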

Additional observations from a re-analysis of the deposited data

How the results depend on the processing

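Counts of the 7 tested genes called depended most on single mice. With 1 mouse left out they ranged from 2 to 7 in HF-SC GFP and 2 to 7 in HF-SC Tom against Co, and in b-KCs from 2 to 6 for GFP and 1 to 4 for Tom. Between GFP and Tom they ranged from 0 to 2 in HF-SCs and 0 to 1 in b-KCs, and between the control groups from 1 to 2. The highest counts against Co came without mouse 817. The share of all tested genes called varied too, from 2.45% to 3.89% and 3.33% to 5.63% in HF-SCs and 1.32% to 3.19% and 2.16% to 3.59% in b-KCs (GFP and Tom against Co), from 1.28% to 3.27% in HF-SCs and 0% to 0.274% in b-KCs between GFP and Tom, and from 5.1% to 5.73% between the control groups, and it was highest without mouse 817 in each. With the mouse as a fixed replicate block, and likewise with only the groups compared, 0 of the 7 genes were called between GFP and Tom in either cell type (of all tested genes 1.18% and 0.0392% with the block, 0.525% and 0% with only the groups compared), and with the mouse as a random replicate block 2 were called in b-KC Tom, as with a pseudocount of 0.1 or a log2 fold threshold of 1 (2.83%, 5.92% and 14.7% of all tested genes). The block changed no call between the control groups. Without a filter on low values 3 were called in HF-SC GFP (1.87% of all genes then tested). With the threshold chosen after seeing the data (adjusted p under 0.05, no fold minimum), 5 were called in HF-SC Tom, and 5 with GFP and 3 with Tom in b-KCs. Slpi in 3 comparisons with Co and Defb3 in all 4 were called under every alternative run. The calls of Defb3 are a description, since it passed the filter through the DKO* groups where it is high.

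Directions that turned belonged to differences that were not called. With a pseudocount of 0.1 the Tom interaction was 0.38 for Defb3 and -0.78 for Pglyrp1, and rescaled libraries gave Defb1 -0.063 in b-KC GFP. With 1 mouse left out, differences for Defb1 ranged from -0.18 to 0.19 in b-KC GFP, -0.035 to 0.47 in b-KC Tom, -0.095 to 0.59 in HF-SC GFP against Tom and -0.35 to 0.0062 in b-KC GFP against Tom. Those of Defb6 in b-KC Tom ranged from -0.20 to 0.88, those of Defb4 between controls from -0.23 to 0.062 and those of Pglyrp1 in HF-SC GFP against Tom from -0.083 to 0.33. The GFP interaction ranged from -0.041 to 0.68 for Defb3 and -0.91 to 0.088 for Pglyrp1, and the Tom interaction from -0.12 to 0.72 for Defb14. The cause was not tested.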
